A study of Rattus norvegicus with 10 samples.

Results

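Gene expression was described along a gradient of type I collagen mRNA in the prefrontal cortex of rats, by relating every measured gene to a collagen score per rat. The score was chosen by measured values: for Col1a1 and Col1a2 the probe set of highest mean was centred over the rats and the pair was averaged. The members were the 11554 probe sets, of 8467 genes, that named a single gene symbol and had a mean above 4 (log2), out of 31042 probe sets that were not array controls. With no filter on the mean, 14217 genes had such a probe set. The 4 probe sets of Col1a1 and Col1a2 were not members. The gradient was labelled meningeal because Col1a1, Col1a2, Col3a1, Ogn and Igf2 are genes of meningeal fibroblasts.

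The samples were 10 male Lewis rats, an inbred strain, with 1 Affymetrix array each. They came from 40 rats that were tested for behaviour and received no treatment, weighed 200 to 250 g, and were killed 6 days after the last test. The tissue was frontal areas Fr1 and Fr2, taken in front of bregma 4.0 mm without the olfactory bulb. All rats form 1 group, so no control group stands beside the gradient. The piece is a mixture of cortical cells with whatever vessel, membrane and underlying tissue was cut with it, and the labels do not say whether the meninges were peeled off. In such bulk tissue, fewer cells of a type and less RNA per cell cannot be told apart.

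The meninges are the membranes that wrap the brain, and their fibroblasts make fibrillar collagen, small proteoglycans and growth factors that brain cells make little of. Type I collagen is built from the Col1a1 and Col1a2 chains and is laid down with type III collagen, while proteoglycans such as decorin, biglycan and osteoglycin bind the collagen fibres. The arachnoid, a layer of these membranes, forms a barrier with transporters and makes prostaglandin D synthase, which is secreted into the cerebrospinal fluid.

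Promoters are shown for Col1a2, which is part of the score, and for Vim, Igf2 and Ptgds, 3 genes whose mRNA was higher in the rats of high score. Each window runs from 250 bases before to 50 bases after the gene start that RefSeq gives on GRCr8, 5′ to 3′ on the strand of the gene. Capitals mark matches, on both strands, to CCAAT (the letters of the CCAAT box), to GGGCGG (the GC box) and to TATAAA (the TATA box).

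Col1a2, GRCr8 chr4:33518307-33518606, plus strand: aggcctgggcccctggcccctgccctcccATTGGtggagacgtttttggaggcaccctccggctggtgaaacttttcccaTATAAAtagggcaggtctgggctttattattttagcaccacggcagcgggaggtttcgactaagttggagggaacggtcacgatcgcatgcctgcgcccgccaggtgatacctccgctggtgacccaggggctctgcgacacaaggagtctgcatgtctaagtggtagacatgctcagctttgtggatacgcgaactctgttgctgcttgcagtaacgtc

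Vim, GRCr8 chr17:81577011-81577310, plus strand: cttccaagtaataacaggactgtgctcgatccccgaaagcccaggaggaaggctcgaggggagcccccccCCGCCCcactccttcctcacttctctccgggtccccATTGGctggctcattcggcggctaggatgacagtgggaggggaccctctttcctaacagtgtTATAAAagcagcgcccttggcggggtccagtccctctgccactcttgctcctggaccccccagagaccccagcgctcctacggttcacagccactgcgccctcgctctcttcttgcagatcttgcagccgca

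Igf2, GRCr8 chr1:207253931-207254230, minus strand: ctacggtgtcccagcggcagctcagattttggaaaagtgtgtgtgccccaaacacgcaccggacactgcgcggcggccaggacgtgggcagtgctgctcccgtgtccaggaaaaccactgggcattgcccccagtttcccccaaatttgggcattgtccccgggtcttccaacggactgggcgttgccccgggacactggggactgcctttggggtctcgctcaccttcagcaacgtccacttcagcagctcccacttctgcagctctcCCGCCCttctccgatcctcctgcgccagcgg

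Ptgds, GRCr8 chr3:28682929-28683228, minus strand: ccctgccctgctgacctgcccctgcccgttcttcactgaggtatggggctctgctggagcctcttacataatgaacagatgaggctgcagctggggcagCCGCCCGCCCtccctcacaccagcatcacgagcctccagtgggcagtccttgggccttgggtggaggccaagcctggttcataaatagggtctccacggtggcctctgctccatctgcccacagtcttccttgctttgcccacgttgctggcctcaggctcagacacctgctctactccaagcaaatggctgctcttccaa

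The Col1a2 window held TATAAA at -170 and CCAAT on the opposite strand at -221 from the start. The Vim window held all 3 motifs, with TATAAA at -82. The Igf2 window held GGGCGG only, on the opposite strand at position 20, and the Ptgds window held that motif at -151 and at -147, on the opposite strand and overlapping. Of the 13 genes that rose with the score, 10 had a window. CCAAT was in 4 of these (40% against 37.7% of all 27457 windows and 38.1% of the 7112 windows of measured genes). GGGCGG was in 7 (70% against 34.9% and 65.0%), and TATAAA in 2 (20% against 14.3% and 6.17%). A match is a description of the letters and not of a bound factor.

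Rats 9 and 3 stood above the other rats in type I collagen mRNA, and rat 8 was lowest. Col1a1 ranged from 6.91 to 9.49 log2 with a median of 7.86, a span of 5.98-fold. Col1a2 ranged from 6.78 to 9.82 log2 with a median of 8.14, a span of 8.21-fold. The scores were 1.55 in rat 9, 1.15 in rat 3, 0.34 in rat 1, 0.26 in rat 2, 0.03 in rat 4, -0.25 in rat 10, -0.34 in rat 7, -0.67 in rat 5, -0.79 in rat 6 and -1.26 in rat 8 (log2, centred on 0, SD 0.86, n = 10). The score therefore spanned 7.00-fold, and the largest step between neighbours was the 0.81 between rats 3 and 1. Both genes were used to build the score, so that their correlation of 0.96 (Spearman's rho 0.98, n = 10) is a description. A second probe set of each gene had been left out. A score from these second probe sets correlated with the first at r = 0.92 (rho 0.92, n = 10), with Col1a1 spanning 4.37-fold and Col1a2 7.41-fold in them.

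**Figure D1:**
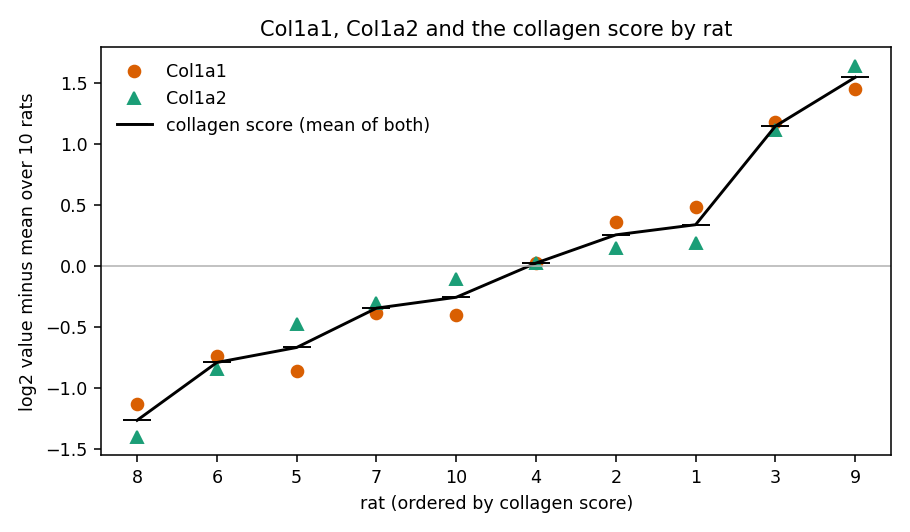
Col1a1 and Col1a2 by rat, as log2 value minus the mean over the 10 rats (vertical axis), with rats ordered by the collagen score; circles are Col1a1, triangles Col1a2, and the line with dashes is the score, the mean of both. Rats 3 and 9 lie at 1.15 and 1.55, above the other 8 rats, and both genes order the rats almost alike.

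Few genes passed an adjusted threshold along the collagen score, and those that did rose with it. A slope was fitted for each probe set with limma, as the log2 difference per log2 unit of the score, so that a slope of 1 means a change as large as that of type I collagen itself. With Benjamini-Hochberg adjustment over 15485 fitted probe sets and a threshold of 0.05, 14 member probe sets of 13 genes rose with the score (0.121% of the members) and 0 fell (0%). Over all fitted probe sets, 16 rose (0.103%), of which 2 had no gene symbol. At 1 probe set per gene, the one of highest mean, 11 of 8467 genes rose (0.13%). The count at an unadjusted p under 0.05 was 197 higher and 237 lower among the members. Over all fitted probe sets it was 247 higher and 291 lower, 538 in all, where 5% of the fitted probe sets is 774.

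The bulk of the transcriptome lay flat along the gradient. Members had a median slope of -0.01 and a median r of -0.09, and 39.9% of the slopes were above 0. From the 5th to the 95th percentile, slopes ran from -0.11 to 0.09. The extremes were unequal: r was above 0.8 in 46 members and below -0.8 in 9, and above 0.9 in 15 members of 13 genes and below -0.9 in 0. A slope above 0.5 was found in 19 probe sets of 16 genes, and a slope below -0.5 in 3, of Drd1, Gng7 and Klk6. Members just inside the filter on the mean were Dnaaf10, Adamtsl2 and Ptpn3, at means of 4.0001, 4.002 and 4.003 log2. Those just outside were Ubtd2, Perp and Loxl1, at 3.9999, 3.998 and 3.997 log2.

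**Figure D2:**
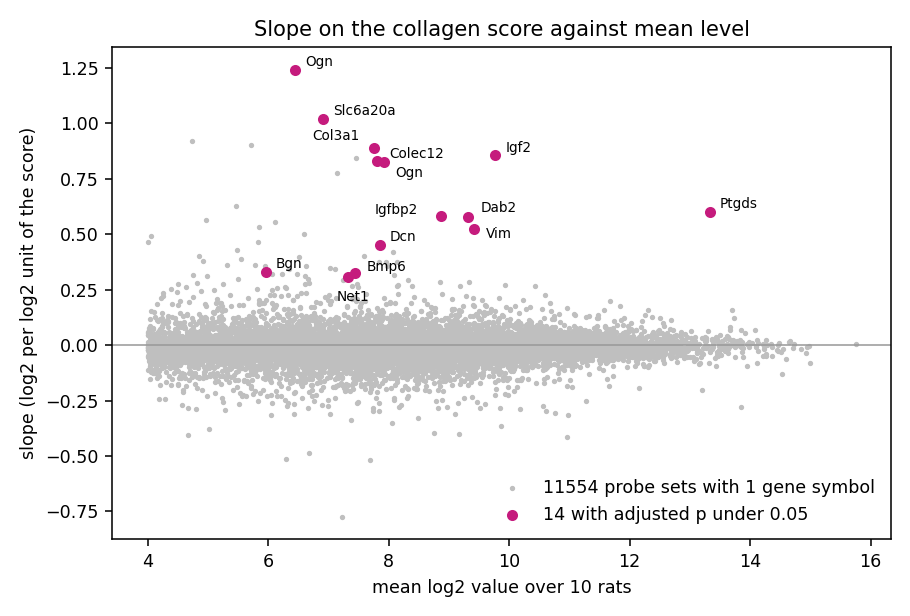
Slope on the collagen score (vertical axis, log2 per log2 unit) against the mean log2 value over 10 rats (horizontal axis) for 11554 probe sets with 1 gene symbol (grey); the 14 past the adjusted threshold are coloured and named. All 14 lie at slopes of 0.31 to 1.24, and 0 lie below 0.

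Of the matrix genes, Col3a1, the chain of type III collagen, ranged from 6.69 to 9.17 log2 with a median of 7.57, a span of 5.58-fold, and had a slope of 0.89 ± 0.06 (SE, n = 10, r = 0.98). Ogn, which encodes osteoglycin, ranged from 7.18 to 9.56 log2 in 1 probe set, with a slope of 0.83 ± 0.12. In another it ranged from 5.09 to 9.24, with a slope of 1.24 ± 0.18, a span of 17.8-fold. Col3a1, Ogn and Igf2 were named as marks of this gradient from earlier results of these data, so their values are a description and are given without a test. Without their 4 probe sets, the genes past the threshold were 10, with 1 probe set each.

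Bgn and Dcn, which encode the collagen-binding proteoglycans biglycan and decorin, rose with slopes under 1. Bgn ranged from 5.54 to 6.49 log2 with a median of 5.91, with a slope of 0.33 ± 0.04 (adjusted p = 0.0053). Dcn ranged from 7.35 to 8.62 log2 with a median of 7.74, with a slope of 0.45 ± 0.05 (adjusted p = 0.0084). In both genes rats 9 and 3 were highest and lay clear of the other 8 rats, by 0.41 log2 for Bgn and 0.39 log2 for Dcn. Rat 8 was lowest for Bgn and rat 5 for Dcn.

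Slc6a20a and Ptgds, genes of the arachnoid barrier and the cerebrospinal fluid, also rose. Slc6a20a, a transporter of proline and related amino acids, ranged from 5.62 to 8.54 log2 with a median of 6.95 and had a slope of 1.02 ± 0.08 (adjusted p = 0.0006). Its span was 7.61-fold, with rats 9 and 3 highest, rat 1 next, and rats 6 and 8 lowest at 5.69 and 5.62 log2. Another probe set of Slc6a20a, with the higher mean (8.14 against 6.91 log2), had a slope of 0.37 and did not pass (adjusted p = 0.663, limma). The gene lists use that probe set. Ptgds, the prostaglandin D synthase secreted by these membranes, ranged from 12.41 to 14.34 log2 with a median of 13.33 and had a slope of 0.60 ± 0.06 (adjusted p = 0.0023).

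Among growth factors, Igf2, the insulin-like growth factor made by meningeal cells in the adult brain, ranged from 8.73 to 11.20 log2 with a median of 9.66 and had a slope of 0.86 ± 0.07 (r = 0.97). Igf2 had 3 further probe sets, which lay below the filter in all rats. Igfbp2, which encodes a binding protein for insulin-like growth factors, ranged from 7.96 to 9.89 log2 with a median of 8.79 and had a slope of 0.58 ± 0.08 (adjusted p = 0.0412). Bmp6, a bone morphogenetic protein, ranged from 6.99 to 8.03 log2 with a slope of 0.33 ± 0.05 (adjusted p = 0.0451). Its other probe set above the filter, of higher mean, had a slope of 0.42 and lay just outside the threshold (adjusted p = 0.0533). Rats 9 and 3 were highest for all 3 genes, but for Bmp6 the gap to rat 2 was only 0.09 log2.

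The remaining genes past the threshold have other roles. Vim, the intermediate filament vimentin of fibroblasts and some glia, ranged from 8.73 to 10.40 log2 with a median of 9.42 and had a slope of 0.53 ± 0.05 (adjusted p = 0.0015). Colec12, a scavenger receptor of the collectin family, ranged from 6.79 to 9.37 log2 with a median of 7.80 and had a slope of 0.83 ± 0.09 (adjusted p = 0.0055). Dab2, an endocytic adaptor, ranged from 8.52 to 10.26 log2 with a median of 9.22 and had a slope of 0.58 ± 0.06 (adjusted p = 0.0064). Net1 ranged from 6.91 to 7.98 log2 with a slope of 0.31 ± 0.05 (adjusted p = 0.0495). For Net1 rats 9 and 3 lay only 0.06 log2 above the next rat. Colec12, Dab2 and Net1 were the 3 genes of the 13 that stood in no gene list described here.

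**Figure D3:**
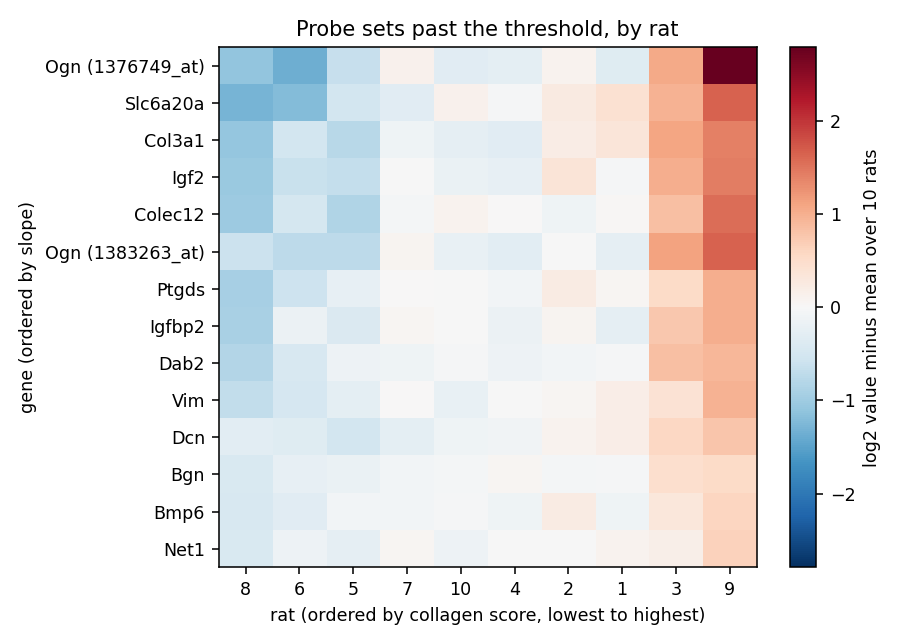
Log2 value minus the mean over 10 rats (colour) of the 14 probe sets past the adjusted threshold, with genes ordered by slope and rats by the collagen score, lowest at the left. In every row rats 3 and 9 are the highest, and rat 8 is the lowest in 11 of the 14.

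A pair of rats carried much of the gradient. In all 14 probe sets past the threshold rats 9 and 3 were the 2 highest. They were also the pair highest in the score that chose these probe sets, so this is a description. With rats 9 and 3 left out, all 14 kept a positive slope, from 0.25 to 1.11 with a median of 0.46, where the members' median was 0.03. Their r in those 8 rats ran from 0.69 to 0.95 and all 14 had an unadjusted p under 0.05, where 330 members (2.86%) had one with a positive slope. The 14 were chosen on 10 rats that include these 8, so these values are no independent support. None of the 14 passed the adjusted threshold in those 8 rats, and the lowest adjusted p of any member was 0.356 (limma). Within the 8 rats Vim had r = 0.95 and a slope of 0.52, and Slc6a20a had r = 0.94 and a slope of 1.11. Ogn had a slope of 0.39 there in its first probe set, against 0.83 in all 10 rats.

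When each rat was left out in turn, Vim and the Slc6a20a probe set of lower mean passed the threshold in all 10 fits. Their adjusted p was at most 0.0347 and 0.0299 (limma). Without rat 9 they were the only ones of the 10 genes tested to pass. Without rat 3, 9 of the 14 probe sets passed. Such counts, here and below, are over all 14, including the 4 probe sets of Col3a1, Ogn and Igf2 that are described without a test. Igfbp2 passed in 3 of the 10 fits, and Bmp6 in 1. The slopes of Col3a1 and Igf2, given as a description, ran from 0.87 to 0.92 and from 0.81 to 0.87 over these fits. The slope was positive for all 14 probe sets in all of these fits.

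The choice of collagen probe set also bore on the count. With Col1a2 alone as the score all 14 passed, and with Col1a1 alone 8 did. With the second probe sets of both genes as the score 1 passed, Dcn, while r with that score still ran from 0.78 to 0.95 in the 14. Of the 4 further probe sets above the filter that Slc6a20a, Ogn and Bmp6 had, all 4 had positive slopes and 0 passed. Probe sets of a gene share RNA and array, so they check the probe and not the animal.

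Other genes of the meningeal list did not pass. Gjb2, which lay just outside the threshold and is the connexin 26 gene of leptomeningeal cells, ranged from 6.30 to 9.34 log2, a span of 8.25-fold, with a slope of 0.84 ± 0.14 (adjusted p = 0.0696). Aldh1a2, an enzyme that makes retinoic acid in the meninges, had a slope of 0.35 ± 0.07 (adjusted p = 0.195). The organic anion transporter gene Slc22a8 had a slope of 0.63 ± 0.13 (adjusted p = 0.356), and the dicarboxylate transporter gene Slc13a3 had 0.50 ± 0.11 (adjusted p = 0.440). Rats 9 and 3 were the 2 highest for all 4 of these genes. In the other 8 rats the slope was 0.59 for Gjb2, 0.29 for Slc13a3, 0.12 for Aldh1a2 and 0.10 for Slc22a8. Gjb2, Aldh1a2, Slc22a8 and Slc13a3 were chosen after their values were seen.

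Of the list of meningeal fibroblast and arachnoid barrier markers, 15 of 46 genes were measured above the filter, and these followed the score more than most genes did. Ptgds and Vim rose, 12 of the 15 had a positive slope, and the median slope was 0.37, beside -0.01 and 39.7% positive over all 8467 genes. An unadjusted p under 0.05 was found in 10 of the 15, all higher, where 1.71% of all genes had one with a positive slope. Genes of a list share the 10 rats and can vary together, so they are not replicates. The list's level per rat, the mean of its centred values, ran from -0.35 in rat 8 to 0.68 in rat 9. A direction in such a list is partly fixed by its choice with these data known, and members that passed the filter only through rats 9 and 3 had to differ. Pdgfra, Ccn3, Moxd1 and Cldn11 were flat at slopes of 0.08, -0.01, -0.07 and -0.10, chosen after their values were seen. Cldn11 is also in the myelin list, so its level need not be that of meningeal cells.

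Several defining markers of these membranes lay below the filter in all 10 rats. Slc6a13, a transporter of fibroblasts and the barrier, ran from 2.41 to 3.02 log2, Lum from 2.66 to 3.03, Slc22a6 from 2.82 to 2.93 and Foxc1 from 3.15 to 3.28. For others the mean was at or below 4 while single rats rose above it. Slc13a4, a sulfate transporter of the arachnoid, had 6.20 log2 in rat 9 and 4.80 in rat 3 and at most 3.94 in the other rats. Fmod, which encodes fibromodulin, had 4.94 log2 in rat 9 and 4.87 in rat 3 and at most 3.61 in the others. In 2 further listed genes only 1 of this pair rose above 4. Crabp2 had 4.48 log2 in rat 9 but 3.61 in rat 3, below the 3.97 of rat 10. Loxl1 had 4.62 log2 in rat 3 but 3.97 in rat 9. Slc13a4, Fmod, Crabp2 and Loxl1 were not among the members, were chosen after their values were seen, and have no test. The label of the gradient thus rests on those marker genes whose probe sets lay above the filter.

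The small proteoglycans and other matrix genes had 11 of 28 measured, with 3 past the threshold (Dcn, Bgn and Ogn, the last described without a test), 10 with a positive slope and a median slope of 0.36. Vtn, Fn1 and Mgp, which encode vitronectin, fibronectin and matrix Gla protein, had slopes of 0.43, 0.40 and 0.36 and did not pass (adjusted p of 0.535, 0.990 and 0.346). Vcan, the versican gene of the brain's own matrix, and Fbn1 had slopes of 0.02 and -0.03. Without rats 9 and 3 the median of this list was 0.16, and that of the meningeal list 0.18, beside 0.03 over all genes. Vtn, Fn1, Mgp, Vcan and Fbn1 were named after their values were seen, except that Vtn also came first in the pericyte list.

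Fibrillar collagens and the enzymes that make them had 13 of 26 genes measured, with Col3a1, which is described without a test, alone past the threshold, 10 with a positive slope and a median slope of 0.05. Serpinh1, the collagen chaperone, had a slope of 0.20 ± 0.07, and P4ha2, a prolyl hydroxylase subunit, 0.12, and neither passed (adjusted p of 0.999 each). Sparc, a collagen-binding protein that many brain cells make, had a slope of 0.02. Basement membrane genes had 7 of 18 measured, 5 with a positive slope, 0 past the threshold and a median slope of 0.08. Nid1, which encodes nidogen, had the largest of these, 0.38 ± 0.08 (adjusted p = 0.333), and rat 9 stood apart from the others for it. In the insulin-like growth factor system 10 of 23 genes were measured. Igfbp2 rose, Igf2 is described without a test, and the receptor genes Igf1r, Igf2r and Insr had slopes of 0.02, 0.08 and -0.02 (list median 0.07). Of the 10, 7 had a positive slope, and Igfbp6 had 0.12 ± 0.05 without passing (adjusted p = 0.999, limma). Sparc, Igf1r, Igf2r and Insr were chosen after their values were seen.

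**Figure D4:**
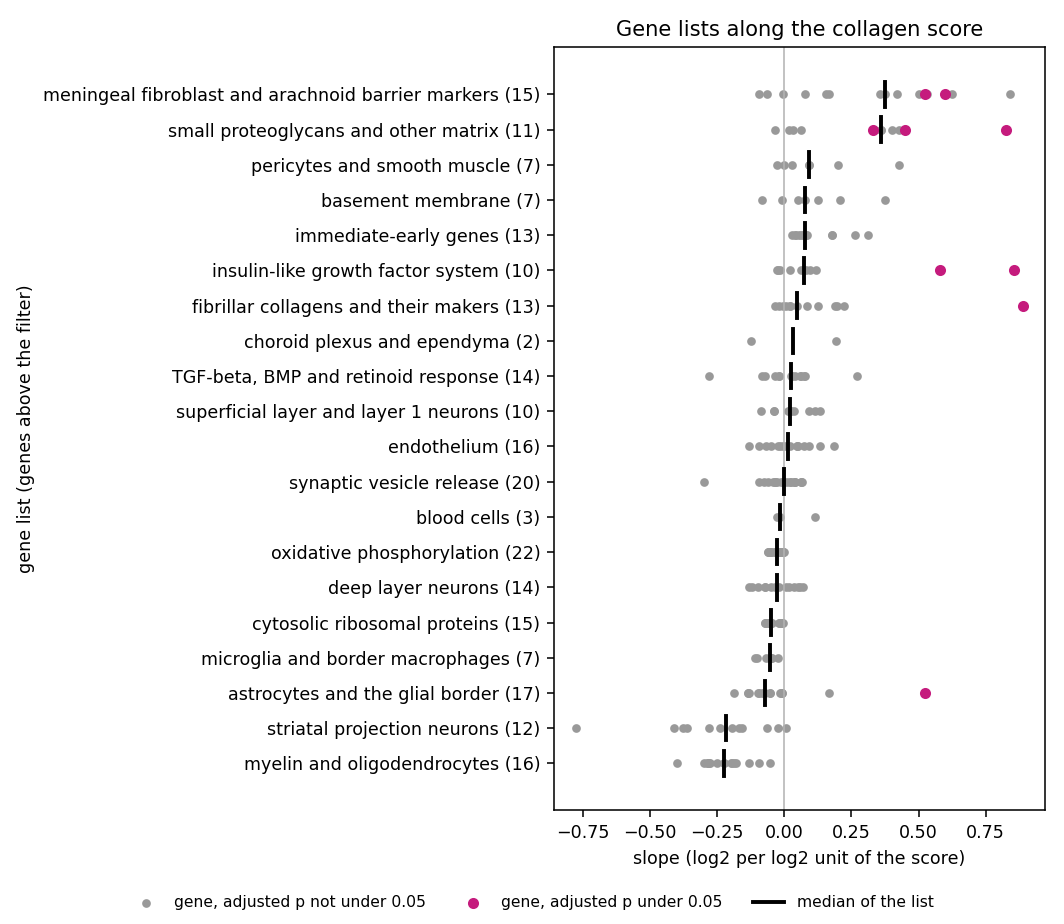
Slope on the collagen score (horizontal axis, log2 per log2 unit) of each measured gene in 20 gene lists, by its probe set of highest mean, with the number of measured genes in parentheses; coloured points passed the adjusted threshold and black bars are list medians. The meningeal and small proteoglycan lists lie highest, at medians of 0.37 and 0.36, and the striatal and myelin lists lowest, at -0.22 each.

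No marker of the vessels that border the meninges passed the threshold. Of the endothelial genes 16 of 26 were measured, 9 had a positive slope, 0 passed and the median slope was 0.01. Cldn5, the tight junction gene of brain endothelium, ranged from 9.62 to 10.16 log2 with a slope of -0.02 ± 0.07. Without rats 9 and 3 that slope was 0.14, so it had no settled sign. Vwf, Abcb1a and Ocln, the 3 of smallest p in this list, had slopes of 0.13, 0.18 and -0.13. In the 10 rats Vwf alone of the 16 had an unadjusted p under 0.05 (limma). With rats 9 and 3 left out, 12 of the 16 were positive with a median of 0.06, beside 64.4% and 0.03 over all genes. The endothelial list's level ran from -0.21 to 0.20, with rat 9 at 0.02 and rat 3 at -0.01. Pericyte and smooth muscle genes had 7 of 20 measured, 0 past the threshold and a median slope of 0.09, above the -0.01 over all genes. Of these, Vtn had a slope of 0.43, Myl9, a smooth muscle myosin light chain gene, 0.20 and Acta2, the smooth muscle actin gene, -0.03. Vtn and Myl9 were the 2 of the 7 at an unadjusted p under 0.05, where 1.71% of all genes had one with a positive slope. The part of pericytes and smooth muscle in the gradient was not tested.

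Choroid plexus, which also makes Igf2, Igfbp2 and Ptgds, was looked for by its own markers. Ttr, the transthyretin gene that marks choroid plexus, lay between 3.84 and 3.96 log2 in all rats. Kl, Folr1 and Kcnj13 were also below 4 in every rat, at most 2.11, 2.20 and 3.23. Olig2, Pecam1 and Cx3cr1, genes of other lists, also lay near the floor of the values, at means of 2.73, 3.42 and 3.33. Such low values therefore cannot show that choroid plexus was absent, and its part in the gradient was not tested. Of 18 listed genes 2 were above the filter: Enpp2, with a slope of -0.13 ± 0.05, and Rarres2, with 0.19, and neither passed. Enpp2 was lowest in rat 3 and highest in rat 7, as were Ugt8 and Mog of the myelin list. Blood cell genes had 3 of 16 measured, 0 past the threshold and a median slope of -0.02, and Hbb, a haemoglobin chain, ranged from 12.06 to 12.97 log2 with a slope of 0.11 ± 0.09.

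Markers of microglia and border macrophages had 7 of 22 measured, all 7 with a negative slope, 0 past the threshold and a median slope of -0.05. Mrc1, Cd163, Lyve1 and Pf4, genes of the macrophages that live in the meninges, reached at most 2.29, 2.69, 2.79 and 3.00 log2. These values lie near the floor and cannot show that such cells were absent. Astrocyte genes had 17 of 18 measured, with a median slope of -0.07. Of these, Vim rose, Gjb6, a connexin shared with the leptomeninges, had a slope of 0.17 without passing, and the other 15 had negative slopes. Without rats 9 and 3 the share of positive slopes over all genes was 64.4% in place of 39.7%, and 11 of the 17 astrocyte and 4 of the 7 microglial genes were positive. Gfap, the astrocyte filament gene, ranged from 10.89 to 11.34 log2 with a slope of -0.05 ± 0.05, and 0.0087 without rats 9 and 3.

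**Figure D5:**
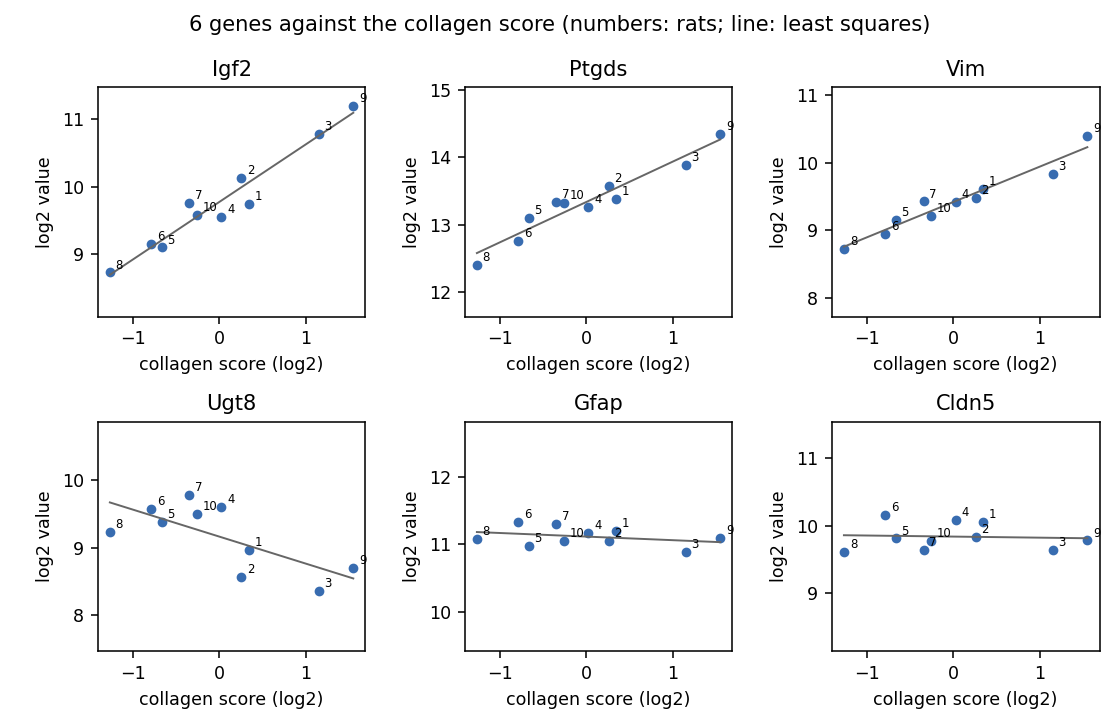
Log2 values (vertical axes, of equal span) against the collagen score (horizontal axes, log2) for 6 genes, with 1 numbered point per rat and a least-squares line. Igf2, Ptgds and Vim climb with slopes of 0.86, 0.60 and 0.53, Ugt8 runs down at -0.40 without passing the threshold, and Gfap and Cldn5 are flat at -0.05 and -0.02.

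On the lower side no gene passed, and the myelin list had the lowest median slope of the 20 lists. All 16 measured genes of the myelin and oligodendrocyte list (of 20) had a negative slope, with a median of -0.22. Of these, 11 had an unadjusted p under 0.05 (limma), where 2.06% of all genes had one with a negative slope. That count was 8 after quantile normalization and 8 with arrays centred on their medians. These genes share the 10 rats and can vary together, so they are not replicates. The list was also chosen with these data known. Ugt8, an enzyme of myelin lipid synthesis, ranged from 8.36 to 9.78 log2 with a slope of -0.40 ± 0.13, Mal from 9.91 to 11.20 with -0.30 ± 0.12 and Mog from 9.11 to 10.32 with -0.28 ± 0.10 (adjusted p = 0.999 each). Rat 3 was lowest for all 3 and rat 7 highest. The list's level per rat ran from -0.58 in rat 3 and -0.37 in rat 2 to 0.33 in rat 4 and 0.44 in rat 7, and it was -0.18 in rat 9. Without rats 9 and 3 the median slope was -0.11, 1 of the 16 was positive and 0 had an unadjusted p under 0.05. Mbp, the myelin basic protein gene, had slopes of -0.13, -0.28 and -0.02 in 3 probe sets, the first in that of highest mean. Mal was chosen after its values were seen.

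Genes of striatal projection neurons, cells that lie beneath the frontal cortex, were also low in rats 9 and 3. Of 17 listed genes 12 were measured, 11 with a negative slope and a median of -0.22, but 0 had an unadjusted p under 0.05. Drd1, the D1 dopamine receptor gene, ranged from 5.79 to 9.60 log2 with a slope of -0.78 ± 0.44 (adjusted p = 0.999). The striatal level was 1.21 in rat 7, 0.74 in rat 4 and 0.40 in rat 10, and -0.46 in rat 3 and -0.47 in rat 9. The rats low in striatal genes thus included the pair highest in collagen, along with rats 1 and 2 at -0.48 and -0.47. Rat 6, with a low collagen score of -0.79, was also low in striatal genes, at -0.37. With the striatal level as a covariate, 9 of the 14 probe sets that rose with collagen passed and all 14 slopes were positive, with a median of 0.62. The myelin median became -0.14 and 3 of its 16 genes had an unadjusted p under 0.05. Rats 9 and 3 were both low in the striatal level, so a fit on 10 rats cannot tell the striatal and collagen levels apart. The part of striatal and myelin levels in the gradient was not tested.

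The 10 genes of smallest p with a negative slope were Bcl2l1, Gng12, Il33, Klk6, Isyna1, Cln8, Nr1h2, Rfng, Cxcl14 and Spout1, and their adjusted p ran from 0.459 to 0.999. Klk6, a protease of oligodendrocytes, ranged from 5.47 to 7.22 log2 with a slope of -0.51 ± 0.13, with rat 9 lowest and rat 7 highest. Il33, a cytokine of glia, ranged from 6.52 to 7.07 log2 with a slope of -0.17 ± 0.04, lowest in rat 3. Bcl2l1, an inhibitor of apoptosis, had -0.31 ± 0.07 in 1 probe set and -0.13 ± 0.06 in another.

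In the neuronal and housekeeping lists no gene passed the threshold. Superficial layer genes had 10 of 16 measured and a median slope of 0.02, and deep layer genes 14 of 18 and -0.03. Synaptic vesicle release genes had 20 of 22 measured and a median of -0.0017, with 10 positive and 10 negative slopes. Oxidative phosphorylation genes had 22 of 26 measured and a median of -0.03, and cytosolic ribosomal proteins 15 of 28 and -0.05. All of the latter 2 lists were negative in the 10 rats, but with rats 9 and 3 left out 18 of 22 and 14 of 15 were positive, beside 64.4% of all genes. Quantile normalization turned 1 of the 22 and 2 of the 15 positive, and centring arrays on their medians 2 of the 22. Immediate-early genes, which report recent neuronal activity, had 13 of 19 measured, all with positive slopes and a median of 0.08, with 0 at an unadjusted p under 0.05. Fos, the best known of them, ranged from 4.91 to 9.66 log2 with a slope of 0.26. Without rats 9 and 3 only 3 of these 13 were positive, beside the 64.4% of all genes. In the list of transforming growth factor beta, BMP and retinoid response genes, 14 of 26 were measured with a median of 0.03. Its largest positive slope was that of Cyp26b1, which breaks down retinoic acid, at 0.27 ± 0.06 (adjusted p = 0.602).

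The collagen score was set against the behaviour of the same rats, which was not used to build it. None of 5 correlations passed (adjusted p of 0.793 or more for r and 0.541 or more for rho, two-sided permutation tests). For startle, r was -0.02 and rho -0.19 (permutation p of 0.964 and 0.606). For locomotion, r was 0.20 and rho 0.33 (permutation p of 0.581 and 0.350). For sugar feeding, r was 0.36 and rho 0.43 (permutation p of 0.307 and 0.216). For prepulse inhibition, the damping of startle by a weaker sound before it, r was -0.28 and rho -0.44 (permutation p of 0.428 and 0.205). These 4 used 10 rats. For the plus maze score, in 7 rats, r was -0.21 and rho -0.13 (exact permutation p of 0.634 and 0.793).

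Without the 2 rats farthest from the median score, rats 9 and 3 in the first 4 behaviours, r became -0.60 for startle and -0.65 for prepulse inhibition, with exact permutation p of 0.119 and 0.0838. It became 0.73 for locomotion and 0.72 for sugar feeding, with exact permutation p of 0.0422 and 0.0446. The plus maze score had r = -0.66 in 5 rats (exact permutation p = 0.267). Adjusted over the 5 behaviours, the lowest p of these was 0.111, so none passed.

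Summaries of the arrays differed little along the gradient. The values had been normalised by quantiles, which makes arrays alike. These summaries therefore cannot show whether RNA or array quality moved with the score, and no measure of RNA quality was used here. Array medians lay between 3.91 and 4.02 log2 and upper quartiles between 8.13 and 8.25, and the correlation between arrays, across genes that are not independent replicates, lay between 0.996 and 0.999. The score had r = -0.08 with the array median (permutation p = 0.829) and r = 0.02 with the upper quartile (permutation p = 0.948). It had r = -0.09 with the mean of the array controls (permutation p = 0.811) and r = 0.25 with the mean of probe sets without a symbol (permutation p = 0.484). Spearman's rho was 0.02, 0.12, 0.09 and 0.27 in that order, and the adjusted p over these 4 was 0.948 for r. Without rats 9 and 3 the r values were 0.05, 0.57, 0.47 and 0.39. With the level of the array controls as a covariate, 10 of the 14 probe sets passed. With 10 arrays, the median SE of a slope was 0.05 over the members.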

How the data were processed

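RNA from the prefrontal cortex of 10 rats was hybridised to 1 Affymetrix rat array each. The deposited values are log2 summaries per probe set, made by the authors with GCRMA under R 2.6.2, per the submitters' processing notes. GCRMA corrects background by probe sequence, normalises by quantiles and summarises probes, and its low values form a floor, so that slopes near it are compressed. The table held 31099 probe sets, 57 of them array controls. The platform annotation gave 1 symbol for 20826 of the others, several for 436 and none for 9780. Of the members, 11520 matched RefSeq by gene number and 0 symbols changed.

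Slopes were fitted with limma 3.58.1 (lmFit and eBayes) in R 4.3.3 on all 15485 non-control probe sets with a mean above 4, of which 273 had several symbols and 3658 none, two-sided, with Benjamini-Hochberg adjustment. The script was tested on simulated data. List values use the probe set of highest mean per gene. Correlations used 100000 permutations, or all of them for fewer than 10 rats. The 20 gene lists, the score and the members were chosen with earlier results of these data known. The named genes were, in each direction, up to 20 genes of smallest p past the threshold, or the 10 of smallest p where fewer passed, 5 of largest slope, 3 of smallest p per list, and a panel (Col1a1, Col1a2, Col3a1, Ogn, Igf2, Igfbp2, Dcn, Lum, Ptgds, Slc6a13, Ttr, Cldn5, Acta2, Mrc1, Gfap, Hbb, Mbp, Drd1 and Fos). Genes named outside this rule were chosen after their values were seen. The labels do not tie rats to litters or batches. Alternatives changed the score, filter, scaling, test, covariates and rats. A search for collagen triple helices was not run, as no protein table was used here.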

Additional observations from a re-analysis of the deposited data

Results flagged for a closer look

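Of 83 sets of values examined, 7 held a rat apart from the other 9 by Dixon's test, which chance gives in about 1 of 20 sets. In 4 of them the rat was rat 9, the highest in collagen. These 4 genes were named by their rank of p on the score, Gng12 among genes of negative slope and the others within a list. Rarres2 and Ltbp3 had an unadjusted p of only 0.054 and 0.105 (limma). Ocln and Hbb were also named within a list. Rat 9 is extreme in the score, so that chance rate does not apply to genes named by p. Rat 9 was the highest for Nid1 at 8.82 log2, with the next rat at 8.17, for Rarres2 at 8.23 with the next at 7.76, and for Ltbp3 at 6.72 with the next at 6.56. It was the lowest for Gng12 at 5.95 log2, with the next at 6.35. In the other three, Ocln was low in rat 2 at 5.71 log2 with the next at 6.18, Hbb in rat 5 at 12.1 with the next at 12.6, and Fos in rat 10 at 4.91 with the next at 7.42.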

How the results depend on the processing

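The count of 14 probe sets that rose with the score was 8 with Col1a1 alone, 4 with ranks of the score, 9 with no filter, 6 with a plain Pearson test and 1 with the second probe sets of both genes. It was 0 without the 2 rats of highest score, where 409 of 15485 probe sets had an unadjusted p under 0.05 with a positive slope and 119 with a negative one, beside 247 and 291 in all rats. It ran from 4 (without rat 9) to 15 over the fits that left out each rat. With the other settings run it lay between 10 and 17, and the count of probe sets that fell was 0 in all of these fits. Centring arrays on their medians turned this split into 261 and 204. No paired analysis was possible because the 10 animals form 1 group with nothing to pair.

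Without the 2 highest rats the median slope was 0.16 in the small proteoglycan list and 0.18 in the meningeal list, and the latter was 0.45 with the second probe sets. Over the fits without 1 rat the proteoglycan median ran from 0.21 to 0.39. Startle had r = 0.066 with Col1a2 alone, 0.011 after quantile normalization and 0.013 with the second probe sets, and -0.39 to 0.086 without 1 rat, and the plus maze score -0.59 to 0.25. The upper quartile had r = -0.047 with Col1a2 alone and -0.089 with the second probe sets. Without 1 rat, r ran from -0.11 to 0.29 for the upper quartile, from -0.18 to 0.051 for the array median and from -0.26 to 0.10 for the array controls.

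Slopes of single genes that changed sign without the 2 highest rats were -0.017 for Abcc9, -0.067 for Rarres2, 0.0023 for P2ry12, 0.0059 for Cux1, 0.013 for Tle4, -0.036 for Fosb, 0.041 for Rpl18, 0.065 for Rpl14, 0.036 for Cox6a1, 0.052 for Atp5po, 0.14 for Cldn5, 0.0087 for Gfap and -0.15 for Fos. Acta2 had 0.027 with the second probe sets. Without 1 rat, Abcc9 ran from -0.0047 to 0.054, Cldn5 from -0.085 to 0.029 and Acta2 from -0.12 to 0.025. The cause of these changes was not tested.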

Other observations

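Coch, Lgals1, Anxa2 and Rbp4 also had slopes above 0.5 on the collagen score without passing the threshold, and were chosen after their values were seen. Coch, which encodes the secreted protein cochlin, ranged from 5.37 to 8.46 log2 with a slope of 0.78 ± 0.21 (r = 0.76, adjusted p = 0.934) and 0.72 without rats 9 and 3. Lgals1, the galectin 1 gene, ranged from 4.42 to 6.54 log2 with a slope of 0.56 ± 0.14, and 0.09 without those rats. Anxa2, the annexin A2 gene, ranged from 5.43 to 7.49 log2 with a slope of 0.56 ± 0.15, and 0.0009 without them. Rbp4, which encodes a retinol carrier, had a slope of 0.53 ± 0.12, and 0.34 without them.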
